A study of Homo sapiens with 41 samples.

Results

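The genes described here make cholesterol or set the pace of its synthesis. They are 28 genes picked by symbol, as the rows of the deposited count table whose identifier was on a list of enzymes of cholesterol synthesis, regulators of the SREBP transcription factors and genes of sterol transport. All 28 were found among the 57773 genes of the table, and all 28 passed the filter on low counts in each fit. They were followed through 41 RNA libraries of a culture model of the lung alveolus, exposed for 24 h to gold nanoparticles in the form of spheres, rods or stars, or left untreated. Apical libraries came from A549, an epithelial line from a lung adenocarcinoma, grown with differentiated THP1, a monocytic leukaemia line, at an air-liquid interface. Basolateral libraries came from the submerged line labelled EA.hy296, which carries endothelial markers here. Each compartment had 7 groups, namely spheres 1000, spheres 500, rods 1000, rods 500, stars 1000, stars 500 and control, where the numbers stand in the sample titles without a unit. A group had 3 replicates, except basolateral spheres 500, which had replicates 1 and 3. All cells are established lines without a stated genetic change, so each compartment stands for 1 or 2 lines and not for a tissue, and cell type and culture condition cannot be told apart.

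Cells build cholesterol from acetyl-CoA through mevalonate, squalene and lanosterol. When sterols in the endoplasmic reticulum are scarce, SCAP escorts the precursor of SREBP2, encoded by SREBF2, to the Golgi, where the MBTPS1 protease makes the first of its activating cuts. The released fragment enters the nucleus and switches on the genes of the pathway, and INSIG1 and INSIG2 hold SCAP back when sterols are plentiful. In the lung, the surfactant that type II epithelial cells secrete contains cholesterol, and alveolar macrophages export it through ABCA1.

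SREBP2 binds a sterol regulatory element, usually beside a CCAAT box bound by NF-Y and a GC box bound by Sp1. Promoters are shown because many of the members are known as shared targets of these factors. A link between motifs and the direction of the differences below was not tested. RefSeq promoters (GRCh38.p14, 250 bases before to 50 bases after each gene's start) were matched for 25 of the 28 members, in 31 windows. A promoter matched for SQLE, FDFT1 or ACAT2 was not used here. The sequences below are the 200 bases before the start of 4 members, written 5′ to 3′ on the gene's strand. Capitals mark the sterol regulatory element motif TCACNCCAC and the CCAAT motif (read as ATTGG on the other strand). Where RefSeq gave a gene several windows, as for HMGCS1, the window with the most matches of these motifs is shown. SREBF2 (chr22:41832905-41833104, plus strand) is the gene of the regulator itself. HMGCS1 (chr5:43313413-43313612, minus strand) and EBP (chrX:48521608-48521807, plus strand) had the largest apical over basolateral differences among the synthesis enzymes. MBTPS1 (chr16:84116943-84117142, minus strand) went the other way.
SREBF2: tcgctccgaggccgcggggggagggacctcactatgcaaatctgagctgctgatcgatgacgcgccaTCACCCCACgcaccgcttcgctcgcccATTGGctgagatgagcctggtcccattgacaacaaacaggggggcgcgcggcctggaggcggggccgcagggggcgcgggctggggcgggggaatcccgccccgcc
HMGCS1: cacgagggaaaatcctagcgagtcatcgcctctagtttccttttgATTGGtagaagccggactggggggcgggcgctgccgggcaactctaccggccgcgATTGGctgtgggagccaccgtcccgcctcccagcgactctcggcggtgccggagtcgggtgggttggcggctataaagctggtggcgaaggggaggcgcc
EBP: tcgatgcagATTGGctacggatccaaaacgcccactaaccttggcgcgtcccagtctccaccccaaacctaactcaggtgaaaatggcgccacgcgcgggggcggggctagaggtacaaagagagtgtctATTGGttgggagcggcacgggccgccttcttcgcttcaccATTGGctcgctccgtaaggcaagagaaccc
MBTPS1: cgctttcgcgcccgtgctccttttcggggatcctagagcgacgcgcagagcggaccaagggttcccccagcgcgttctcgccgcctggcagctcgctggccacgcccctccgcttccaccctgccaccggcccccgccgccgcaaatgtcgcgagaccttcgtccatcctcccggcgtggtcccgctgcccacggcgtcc

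TCACNCCAC, searched on both strands of the 300-base windows, was present in 1 of the 25 matched members, SREBF2, and in 1.13% of all 35116 promoters. CCAAT was present in 17 of the 25 members, and in 19 of their 31 windows (61.3%), against 34.6% of all promoters. Without a CCAAT match were CYP51A1, ABCA1, SREBF1 and PMVK, called higher in apical control below, and also MBTPS1, NPC1, SCAP and INSIG2. STARD4 and MYLIP, not called there, had a match. GGGCGG was present in 23 of the 25 members, and in 28 of their 31 windows (90.3%), against 45.0% of all promoters. Matches of different motifs shared bases in 0 of the 31 windows. These matches describe letters in a fixed window and nothing about binding.

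Levels are given as CPM, which are counts scaled to a library total of 1000000. The apical libraries held 5243388 to 11660653 counts and the basolateral libraries 2751299 to 10538069, where basolateral spheres 1000 replicate 2 was the lowest. In these libraries 3 counts amount to between 0.257 and 1.09 CPM, and every member lay above that level in all control libraries. Endothelial markers were at 40.5 to 100.4 summed CPM in apical and 1732 to 2882 in basolateral libraries, with CDH5, the cadherin of endothelial junctions, at 1.14 to 24.99 CPM in apical and 530 to 1166 CPM in basolateral libraries. Of the 12 endothelial markers listed 11 were found, CLDN5 was at or near 0 in both compartments, and of the macrophage markers MRC1 was at or near 0. The summed epithelial and macrophage markers were higher in apical libraries. Of the epithelial markers, KRT7 overlapped, at 273 to 532 CPM in apical and 221 to 323 CPM in basolateral libraries. EPCAM did too, at 1.35 to 13.6 and 0 to 2.18 CPM. ALDH1A1, an aldehyde dehydrogenase typical of A549, was also read in every basolateral library, at 95.2 to 2073 CPM against 6267 to 9754 CPM in apical ones. By replicate number those basolateral levels were 598 to 2073, 300 to 726 and 95.2 to 782 CPM, and replicate 1 stands apart in the results below. The apical libraries parted into 3 sets of 7 by KIT, a mast cell receptor gene, at 760.0 to 973, 444 to 513 and 103 to 138 CPM, and the labels name no mast cell line. The high KIT set was replicate 1 of all 7 groups. Each group had 1 library in each set, except that replicates 2 and 3 of spheres 500 both lay in the middle set and those of rods 500 both in the low set. An exchange of 1 label between these groups would give the same layout and was not tested, so values of these groups carry that doubt. In both stars groups replicate 2 lay in the low and replicate 3 in the middle set, the reverse of control, spheres 1000 and rods 1000. Log2 fold changes below are given with their standard error (SE), and genes were called at an adjusted p under 0.05 in edgeR over all genes tested.

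The first comparison set the apical control culture against the basolateral control culture. The cholesterol synthesis enzymes stood higher in the apical cells as a whole chain, with all 18 called and a summed level of 2558 ± 135 CPM in apical control against 734 ± 160 CPM in basolateral control (SD, n = 3 each), a ratio of 3.49. SREBF1, SREBF2 and INSIG1 were higher as well, and so was the exporter ABCA1. MBTPS1 and NPC1 were lower in apical cells, while SCAP, INSIG2, STARD4 and MYLIP were not called. In all, 22 members were higher and 2 lower in apical control, against a background of 51.4% of the 16352 tested genes called, 27.2% higher and 24.2% lower. The members' shares were 85.7% called, 78.6% higher and 7.14% lower, and their median log2 fold change was 1.48, against 0.08 over all tested genes. Non-overlap of the control groups is given below for single members. It was not counted over all genes, so it cannot be read as particular to the members. Fewer cells of a type and less RNA per cell cannot be told apart in these bulk libraries.

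**Figure D1:**
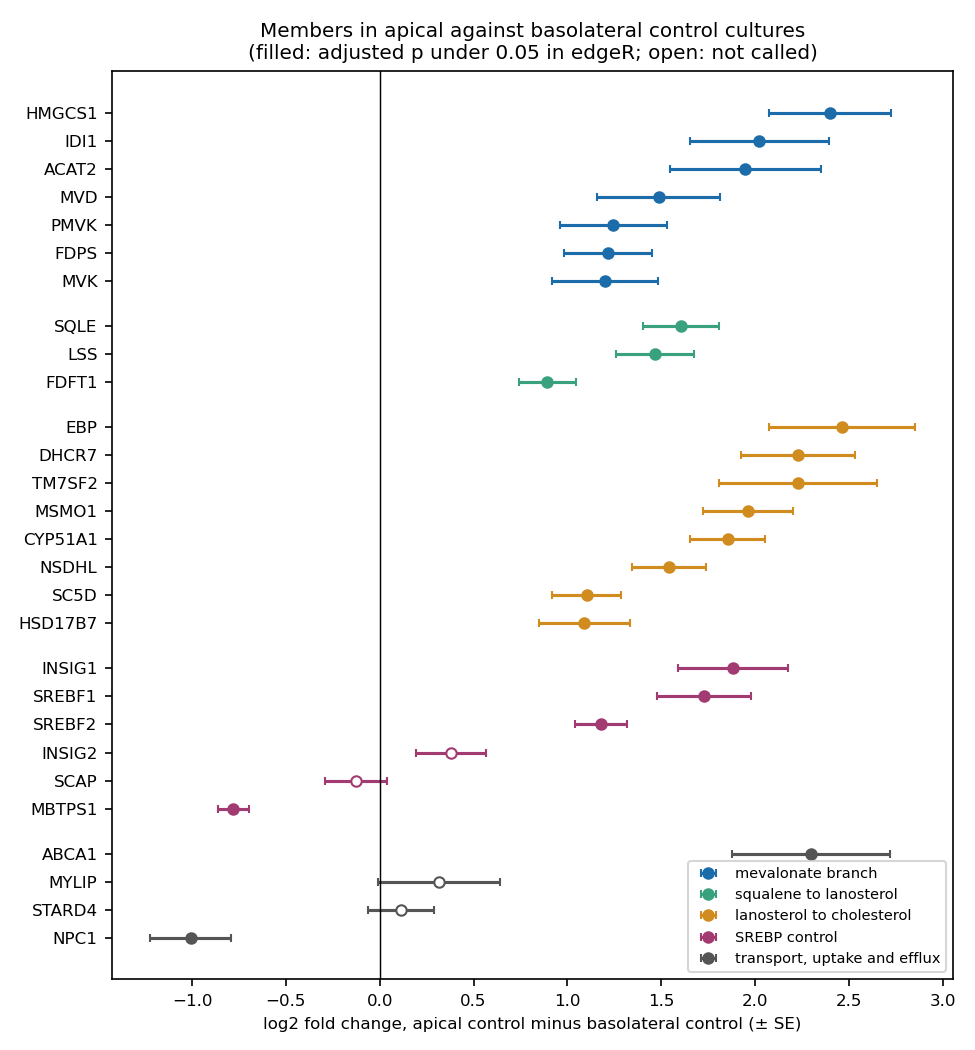
Log2 fold change of each member in apical control minus basolateral control (horizontal axis, bars are SE, n = 3 libraries each), grouped by role, with filled points for members called in edgeR. All 18 synthesis enzymes lie between 0.89 and 2.46, whereas MBTPS1 at -0.78 and NPC1 at -1.01 lie below 0.

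The mevalonate branch turns acetyl-CoA into isoprenoid building blocks, and all 7 of its members were higher in apical control, with a median log2 fold change of 1.49. ACAT2, the cytosolic thiolase that joins acetyl-CoA units, had 79.1, 74.3 and 60.4 CPM in apical control replicates 1, 2 and 3, against 19.3, 24.1 and 8.08 CPM in basolateral control (1.95 ± 0.40, adjusted p = 0.000194 in edgeR). HMGCS1, which makes HMG-CoA from these units (ENSG00000112972, chromosome 5, 43289395 to 43313512, minus strand, GRCh38), had 393, 455 and 513 CPM in the apical and 91.1, 91.2 and 58.7 CPM in the basolateral libraries. Each of its apical replicates lay above every basolateral replicate, and its log2 fold change was 2.40 ± 0.33 (adjusted p = 5.16e-07). MVK, mevalonate kinase, was the faintest enzyme of the branch at 17.5, 14.2 and 14.3 CPM apically, against 6.24, 8.47 and 3.82 CPM basolaterally (1.20 ± 0.28, adjusted p = 0.000717). ACAT2 shares 33.9% of its exon bases with SOD2-OT1 and 26.5% with SOD2, both on the opposite strand, so its counts are uncertain.

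The groups also stayed apart for the next steps. PMVK, which adds the second phosphate, had 13.9, 21.8 and 20.8 CPM in apical control and 7.01, 8.09 and 7.21 CPM in basolateral control (1.25 ± 0.28). For MVD, the decarboxylase that yields isopentenyl diphosphate, the values were 34.9, 23.8 and 30.4 CPM apically and 14.1, 9.14 and 6.33 CPM basolaterally (1.49 ± 0.33). IDI1 isomerises that product, and measured 226, 206 and 182 CPM in apical against 63.5, 45.1 and 32.3 CPM in basolateral control (2.02 ± 0.37, adjusted p = 4.86e-05). FDPS condenses the units to farnesyl diphosphate, the branch point to squalene and to prenylated proteins, and measured 173, 176 and 160.1 CPM against 78.7, 67.8 and 57.9 CPM (1.22 ± 0.23, adjusted p = 7.81e-05). FDPS has 8 named pseudogenes in the annotation, so its counts are uncertain.

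The 3 enzymes that commit farnesyl diphosphate to sterols and close the rings were all higher apically, with a median of 1.47. FDFT1, squalene synthase, had 241, 251 and 221 CPM in apical control against 136, 121 and 102 CPM in basolateral control, the smallest difference among the 18 enzymes (0.89 ± 0.15, adjusted p = 1.62e-05). SQLE, the squalene epoxidase that starts ring closure, had 272, 357 and 379.5 CPM against 106, 124 and 80.1 CPM (1.60 ± 0.20, adjusted p = 1.02e-07). LSS, which folds the epoxide into lanosterol, had 60.1, 57.9 and 63.3 CPM against 22.6, 20.4 and 18.2 CPM (1.47 ± 0.21, adjusted p = 9.32e-07). For each of the 3 the lowest apical library lay above the highest basolateral library, a separation that was not counted over all genes.

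The late enzymes, from lanosterol towards cholesterol, had the highest median of the roles at 1.91, and 8 of 8 were called. CYP51A1, which removes a methyl group from lanosterol, had 427, 483 and 485 CPM in apical control and 136, 144 and 80.5 CPM in basolateral control (1.85 ± 0.20, adjusted p = 4.70e-09). This gene shares 79.4% of its exon bases with a same-strand annotation, AC000120.2, and has 3 named pseudogenes, so reads of the locus cannot be assigned with certainty. TM7SF2, a sterol C14 reductase, was faint, at 16.2, 17.1 and 13.5 CPM against 4.38, 3.37 and 1.53 CPM (2.23 ± 0.42, adjusted p = 6.02e-05). MSMO1, the methyl oxidase of the next demethylation, had 133, 143 and 145 CPM against 38.3, 38.5 and 23.9 CPM (1.96 ± 0.24, adjusted p = 5.89e-08).

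NSDHL, its partner dehydrogenase, had 46.3, 67.2 and 57.4 CPM in apical and 23.4, 17.1 and 14.5 CPM in basolateral control (1.54 ± 0.20, adjusted p = 1.55e-07). HSD17B7 reduces the resulting ketone, and measured 41.8, 36.4 and 31.4 CPM against 20.03, 15.98 and 11.9 CPM (1.09 ± 0.24), with 2 named pseudogenes. EBP, the sterol isomerase (ENSG00000147155, chromosome X, 48521158 to 48528716, plus strand, GRCh38), had 80.5, 81.8 and 80.2 CPM against 18.4, 15.9 and 6.77 CPM, which was the largest difference of any member (2.46 ± 0.39, adjusted p = 6.03e-06). Its apical replicates were nearly equal, while basolateral replicate 3 was lower than the other two. SC5D, a desaturase, had 67.5, 78.2 and 71.7 CPM against 29.7, 39.6 and 25 CPM (1.10 ± 0.18). DHCR7, which reduces 7-dehydrocholesterol to cholesterol, had 79.5, 87.3 and 112 CPM against 20.9, 23.2 and 11.2 CPM (2.23 ± 0.30, adjusted p = 4.58e-07).

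The 6 control genes did not move as one. SREBF2, the gene of the main activator of the pathway (ENSG00000198911, chromosome 22, 41833079 to 41907308, plus strand, GRCh38), had 178, 187 and 194 CPM in apical control against 80.1, 79.5 and 70.5 CPM in basolateral control (1.18 ± 0.14, adjusted p = 2.85e-08). SREBF1, whose products act mainly on fatty acid genes, had 174, 152 and 171 CPM against 60.5, 42.9 and 36.5 CPM (1.73 ± 0.25, adjusted p = 1.22e-06). INSIG1, the sterol-sensing anchor that is itself an SREBP target (ENSG00000186480, chromosome 7, 155297776 to 155310235, plus strand, GRCh38), had 245, 232 and 225.0 CPM against 75.6, 63.3 and 38.5 CPM (1.88 ± 0.30, adjusted p = 4.85e-06). None of these 3 overlapped between the compartments, and the share of all genes without overlap was not counted.

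INSIG2, the second anchor, had 33.6, 31.4 and 34.96 CPM in apical and 24.96, 23.5 and 23.1 CPM in basolateral control. These values did not overlap, but the difference was not called (0.38 ± 0.19, adjusted p = 0.0869). SCAP, the escort protein, had 20.2, 27.2 and 28.1 CPM against 19.9, 30.9 and 26.3 CPM, and the apical values lay within the basolateral range (-0.13 ± 0.17, adjusted p = 0.547). MBTPS1, the site-1 protease (ENSG00000140943, chromosome 16, 84053761 to 84116906, minus strand, GRCh38), was the one control gene that was lower, with 126, 126 and 136 CPM in apical against 193, 214 and 215 CPM in basolateral control (-0.78 ± 0.08, adjusted p = 3.84e-09). It had the smallest p of the 28 members.

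Among the transport genes the ends of the scale were ABCA1 and NPC1. ABCA1, which exports cholesterol to apolipoproteins, had 76.7, 64.9 and 120.0 CPM in apical control against 18.4, 11.4 and 20.1 CPM in basolateral control (2.30 ± 0.42, adjusted p = 4.92e-05). NPC1, which releases cholesterol from lysosomes, was lower, with 118, 98.2 and 99.5 CPM in apical against 235, 205 and 152 CPM in basolateral control (-1.01 ± 0.21, adjusted p = 0.000261). STARD4, a carrier of cholesterol between membranes, had 105, 105 and 91.0 CPM against 86.2, 92.2 and 80.7 CPM, and these overlapped (0.11 ± 0.18, adjusted p = 0.623). MYLIP, a ubiquitin ligase of lipoprotein receptors, was faint, at 6.10, 10.02 and 8.50 CPM against 6.79, 5.49 and 6.33 CPM (0.32 ± 0.33, adjusted p = 0.436).

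By role, the summed levels were 963 ± 23.03 CPM in apical against 236 ± 55.0 CPM in basolateral control for the mevalonate branch and 634 ± 52.7 against 243 ± 37.3 CPM for squalene to lanosterol. They were 961 ± 59.6 against 255 ± 68.8 CPM for the late steps and 774 ± 17.4 against 439 ± 25.7 CPM for the control genes. For these 4 sums the exact 2-sided permutation test gave p = 0.1, the smallest that 3 against 3 libraries allow. The transport genes summed to 301 ± 21.03 against 306 ± 43.9 CPM (exact 2-sided permutation p = 0.9), with ABCA1 higher and NPC1 lower in apical control.

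Per kilobase of exon, CYP51A1 was the most abundant member in both compartments, at 129.7 ± 9.18 CPM per kb in apical and 33.5 ± 9.65 in basolateral control (SD, n = 3 each). HMGCS1 (96.5 ± 12.8) and SQLE (78.1 ± 13.1) followed in apical control, where their spreads overlap. In basolateral control SQLE (24.0 ± 5.09) and FDFT1 (22.9 ± 3.28) followed. MBTPS1 (20.2 ± 1.20), NPC1 (19.5 ± 4.14) and FDPS (18.3 ± 2.81) came next, ahead of HMGCS1 (17.1 ± 3.98). These neighbours lie within each other's spread. The least abundant members in apical control were MVK (2.37 ± 0.295), MYLIP (2.71 ± 0.652) and SCAP (3.92 ± 0.673). TM7SF2 (0.907 ± 0.424), MVK (0.953 ± 0.359) and ABCA1 (1.46 ± 0.408) were the least abundant in basolateral control.

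The contrast was the same in each of the 6 exposed conditions when apical and basolateral libraries of one exposure were compared. All 18 synthesis enzymes were called higher in 7 of 7 conditions, as were ABCA1, SREBF1, SREBF2 and INSIG1, and MBTPS1 and NPC1 were called lower in 7 of 7. The background of called genes was 46.9% in spheres 1000, 44.6% in spheres 500, 48.9% in rods 1000, 48.8% in rods 500, 51.2% in stars 1000 and 52.9% in stars 500. INSIG2 was called, as higher, in rods 500 alone of the 7 conditions, where 25.9% of all genes were called higher, and SCAP, STARD4 and MYLIP in none. For HMGCS1 the log2 fold change ran from 2.12 to 2.75 over the 7 conditions, for SREBF2 from 0.94 to 1.40, for MBTPS1 from -0.93 to -0.71 and for ABCA1 from 2.10 to 2.96. Over all 21 apical and 20 basolateral libraries, 21 members had every apical library above every basolateral one and 1, MBTPS1, had every apical library below. PMVK, SCAP, INSIG2, STARD4, NPC1 and MYLIP overlapped. How many of all genes separated in this way was not counted, so the separation cannot be read as particular to the members.

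**Figure D2:**
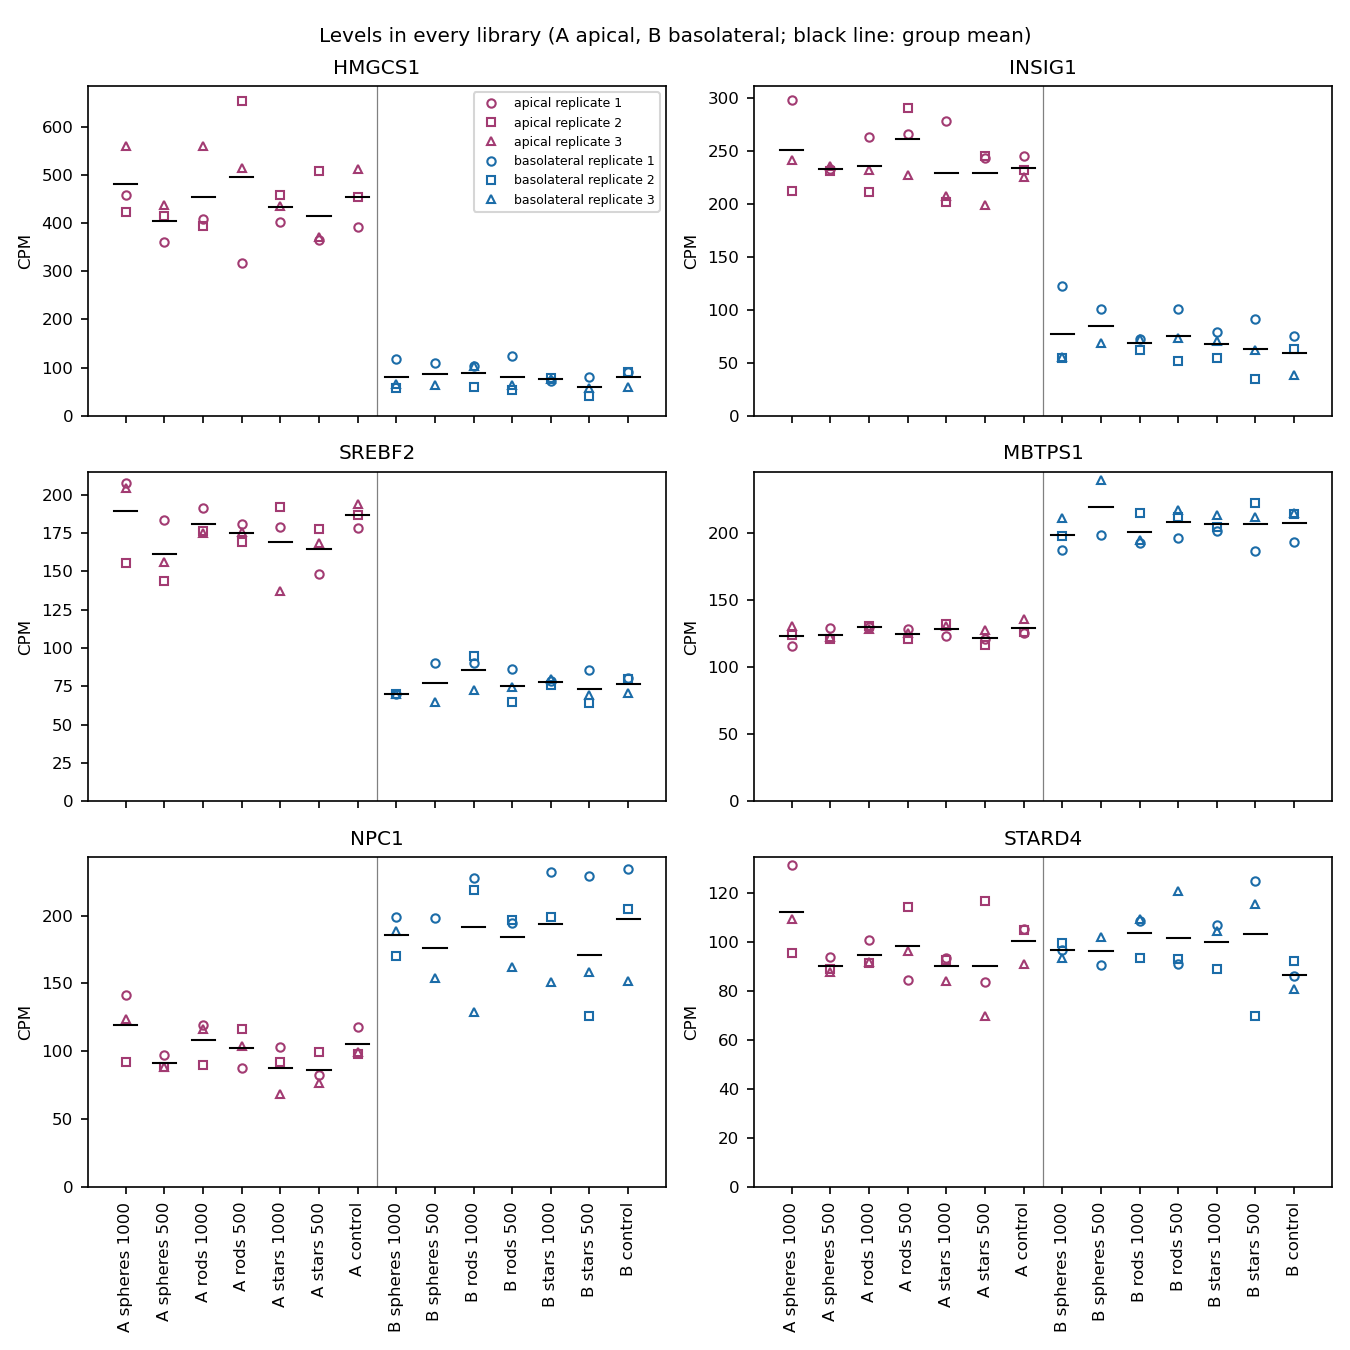
CPM of 6 members in every library, by group (A apical, left of the vertical line, B basolateral, right of it), with symbols for replicate numbers and black lines for group means. HMGCS1, INSIG1 and SREBF2 lie higher and MBTPS1 lower in every apical library than in any basolateral one, NPC1 overlaps, and STARD4 is level across the groups.

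Over the 21 apical libraries HMGCS1 ranged from 316 to 654 CPM with a median of 437, and from 40.3 to 125 CPM with a median of 74.3 over the 20 basolateral ones. INSIG1 ranged from 199 to 298 CPM (median 233) apically and from 35.1 to 122 CPM (median 69.4) basolaterally. MBTPS1 was among the steadiest members, at 115 to 136 CPM apically and 186 to 239 CPM basolaterally. STARD4 ranged from 69.9 to 131 CPM in apical and from 69.7 to 125 CPM in basolateral libraries.

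The basolateral level of the synthesis enzymes differed between replicate numbers, as did the epithelial markers. The summed CPM of the 18 enzymes was 835 to 1123 (median 919) in the 7 replicate 1 libraries, 504 to 816 (median 691) in the 6 replicate 2 libraries and 550 to 842 (median 632) in the 7 replicate 3 libraries. Over the same libraries the epithelial list of 7 genes summed to 1425 to 3587, 972 to 1626 and 626 to 1736 CPM, and the macrophage list to 244 to 420, 126 to 204 and 70.8 to 199 CPM. The endothelial list summed to 1732 to 2294, 2419 to 2848 and 2353 to 2882 CPM. Within a replicate number the 2 did not run together in every library, since stars 500 replicate 2 had the lowest enzyme sum of the 20 libraries with ALDH1A1 at 530.1 CPM, while rods 500 replicate 2 had 650.04 summed CPM with ALDH1A1 at 299.6 CPM. In basolateral control replicates 1, 2 and 3, ALDH1A1 stood at 14.4, 8.05 and 1.73% of its apical control mean. HMGCS1 stood at 20.1, 20.1 and 12.9% of its apical mean in these libraries, EBP at 22.8, 19.6 and 8.37%, INSIG1 at 32.3, 27.1 and 16.5% and SREBF2 at 43.0, 42.6 and 37.8%. Other enzymes were highest in replicate 2, among them ACAT2 at 27.03, 33.8 and 11.3%, MVK at 40.7, 55.2 and 24.9%, SQLE at 31.5, 36.8 and 23.8%, CYP51A1 at 29.3, 30.9 and 17.3% and SC5D at 40.9, 54.6 and 34.5%. Of the 18 enzymes 9 were higher in replicate 2 than in replicate 1, and 17 were lower in replicate 3 than in replicate 1. Whether the basolateral reads of ALDH1A1 and of the enzymes came from carried-over apical RNA or from the basolateral line itself was not tested. With all replicate 1 libraries left out, 24 of 28 members were called as before.

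**Figure D3:**
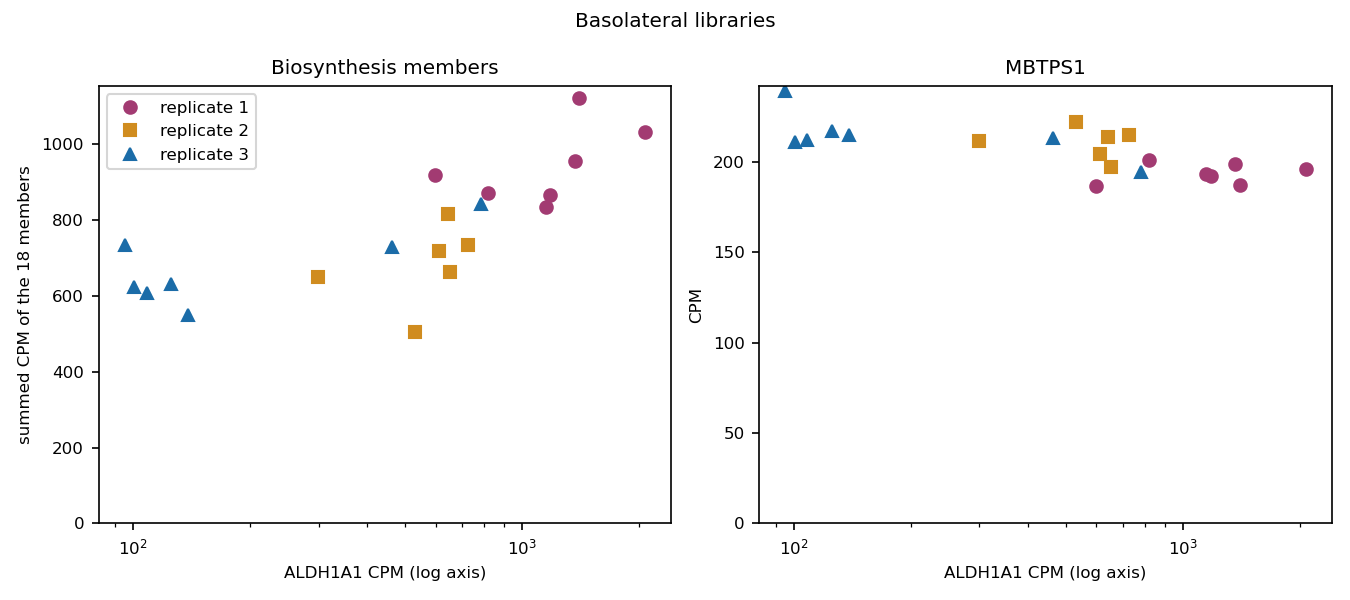
Summed CPM of the 18 synthesis enzymes (left) and CPM of MBTPS1 (right) against ALDH1A1 CPM on a log axis, 1 point for each of the 20 basolateral libraries, with symbols for replicate numbers. Of the 7 replicate 1 libraries, at 835 to 1123 summed CPM and 598 to 2073 CPM of ALDH1A1, 6 lie above every other library in enzyme sum and 1 lies below rods 1000 replicate 3 at 842 CPM, while their MBTPS1 level of 186 to 201 CPM is on the low side.

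Other genes of sterol and lipid metabolism, from lists chosen with earlier results of these data known, differed between the control cultures too. Of 19 further sterol genes 18 were tested, 12 were higher and 1 lower in apical control, with a median log2 fold change of 0.61. Over all 16352 tested genes 27.2% were higher and 24.2% lower. MBTPS2, the protease of the second activating cut of SREBP, was higher, at 73.3 ± 6.04 CPM in apical against 33.5 ± 3.43 CPM in basolateral control (1.03 ± 0.14, adjusted p = 3.76e-07), opposite to MBTPS1. TMEM97, a sterol-binding membrane protein that partners NPC1, measured 124 ± 24.97 against 20.3 ± 9.97 CPM (2.52 ± 0.43). SOAT1, which esterifies cholesterol for storage, measured 133 ± 18.5 against 67.7 ± 4.55 CPM (0.88 ± 0.14), and ERLIN2, a membrane protein of the degradation of sterol sensors, 89.6 ± 12.3 against 49.0 ± 3.39 CPM (0.77 ± 0.11). ACAT1, the mitochondrial relative of ACAT2, was the 1 lower gene, at 30.99 ± 4.28 against 48.4 ± 4.08 CPM (-0.74 ± 0.16).

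The counts in this paragraph stand against the same background of 27.2% of all tested genes higher and 24.2% lower. Of 10 genes of fatty acid synthesis under SREBP1, 9 were higher and 1, LPIN1, was lower. The desaturases FADS1 and FADS2 had log2 fold changes of 2.08 ± 0.25 and 2.64 ± 0.32. The malic enzyme ME1, a source of NADPH, was at 237 ± 17.4 CPM in apical against 70.9 ± 18.2 CPM in basolateral control (1.64 ± 0.19), and the citrate lyase ACLY at 574 ± 23.6 against 369 ± 14.4 CPM (0.53 ± 0.09). Of 5 genes around the sterol-sensing receptor LXR, which drives ABCA1, 3 were higher and none lower. NR1H3, the gene of LXR alpha, measured 13.8 ± 3.66 CPM in apical against 2.30 ± 0.763 CPM in basolateral control (2.50 ± 0.54, adjusted p = 0.000309), while LPCAT3 and SMPDL3A, both LXR targets in macrophages, had log2 fold changes of 1.12 ± 0.24 and 1.61 ± 0.41. All 11 tested macrophage markers were higher in apical control.

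The second comparison asked whether gold particles of any shape or number altered the pathway in the apical cells. In the apical compartment no member was called in any of the 6 exposed groups, against a background of 0% of 15225 genes called in each. The counts of all genes at an unadjusted p under 0.05 ran from 271 to 413, DESeq2 called 0 to 3 genes and limma-voom 0, none of them members. The members' log2 fold changes lay between -0.47 and 0.37, with a median SE of 0.15. Their medians were 0.06 in spheres 1000, -0.06 in spheres 500, -0.04 in rods 1000, -0.03 in rods 500, -0.10 in stars 1000 and -0.13 in stars 500, while the medians of all genes ran from -0.0027 to 0.0048. The 6 comparisons share the 3 control libraries, so a control library that is high or low moves all of them.

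PMVK, IDI1, FDPS, FDFT1, MSMO1, DHCR7 and SREBF1 lay below the control mean in 6 of 6 groups. How many of all genes kept to the same side of control in 6 of 6 was not counted in either compartment. NSDHL had the smallest p of the members in 4 of the 6 groups and also lay below the control mean in 6 of 6. It had 52.1, 51.8 and 59.7 CPM in spheres 1000, 47.7, 54.4 and 50.4 in spheres 500, 47.3, 46.9 and 46.3 in rods 1000, and 50.6, 49.8 and 47.4 in rods 500. In stars 1000 it had 50.9, 46.6 and 44.2 CPM and in stars 500 43.1, 44.6 and 42.4 CPM, against 46.3, 67.2 and 57.4 CPM in control. Control replicate 1 lay among the exposed values, and the stars 500 libraries alone lay wholly below control. The log2 fold change in stars 500 was -0.39 ± 0.12 (unadjusted p = 0.00389, adjusted p = 1 in edgeR), in rods 1000 -0.29 ± 0.12 (unadjusted p = 0.0262) and in stars 1000 -0.27 ± 0.12 (unadjusted p = 0.033). Averaged over the 6 exposed groups it was -0.23 ± 0.09 (unadjusted p = 0.0181, adjusted p = 1.00), with 0% of all genes called in that contrast.

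SCAP ran the other way, above the control mean in 6 of 6 groups. In stars 500 it had 29.3, 31.6 and 35.4 CPM and in stars 1000 34.5, 28.1 and 28.9 CPM, against 20.2, 27.2 and 28.1 CPM in control. The stars 500 libraries lay above all control libraries (0.35 ± 0.14, unadjusted p = 0.0266, adjusted p = 1 in edgeR). Over the other 4 exposed groups SCAP ranged from 24.6 to 32.7 CPM. Control replicate 1 was the lowest of the 21 apical libraries.

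LSS had the smallest p in spheres 1000, at 92.3, 59.7 and 77.2 CPM against 60.1, 57.9 and 63.3 CPM in control (0.36 ± 0.18, unadjusted p = 0.0615). NPC1 in the same groups had 142, 92.4 and 124 CPM against 118, 98.2 and 99.5 CPM. SREBF2 had 183, 144 and 156 CPM in spheres 500 against 178, 187 and 194 CPM in control (-0.24 ± 0.13, unadjusted p = 0.0845), with 1 exposed library inside the control range. MVK in rods 1000 had 11.4, 11.1 and 12.5 CPM against 17.5, 14.2 and 14.3 CPM, so the groups did not overlap (-0.39 ± 0.20, unadjusted p = 0.0718). INSIG2 in rods 500 had 35.3, 50.02 and 36.1 CPM against 33.6, 31.4 and 34.96 CPM (0.30 ± 0.19, unadjusted p = 0.133). MVD in stars 1000 (21.1, 27.7 and 20.1 CPM against 34.9, 23.8 and 30.4 CPM in control) and TM7SF2 in stars 500 (15.6, 10.6 and 10.8 CPM against 16.2, 17.1 and 13.5 CPM) overlapped with control.

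INSIG1 was not called in any apical group either, with apical group ranges of 212 to 298 CPM in spheres 1000, 231 to 236 in spheres 500, 212 to 264 in rods 1000, 227 to 290.3 in rods 500, 202 to 278 in stars 1000 and 199 to 245 in stars 500, against 225.0 to 245 in control. Its log2 fold changes lay between -0.03 and 0.18. HMGCS1 lay between -0.19 and 0.15 and CYP51A1 between -0.07 and 0.06. SREBF1 lay below the control mean in 6 of 6 groups, at -0.22 to -0.03.

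**Figure D4:**
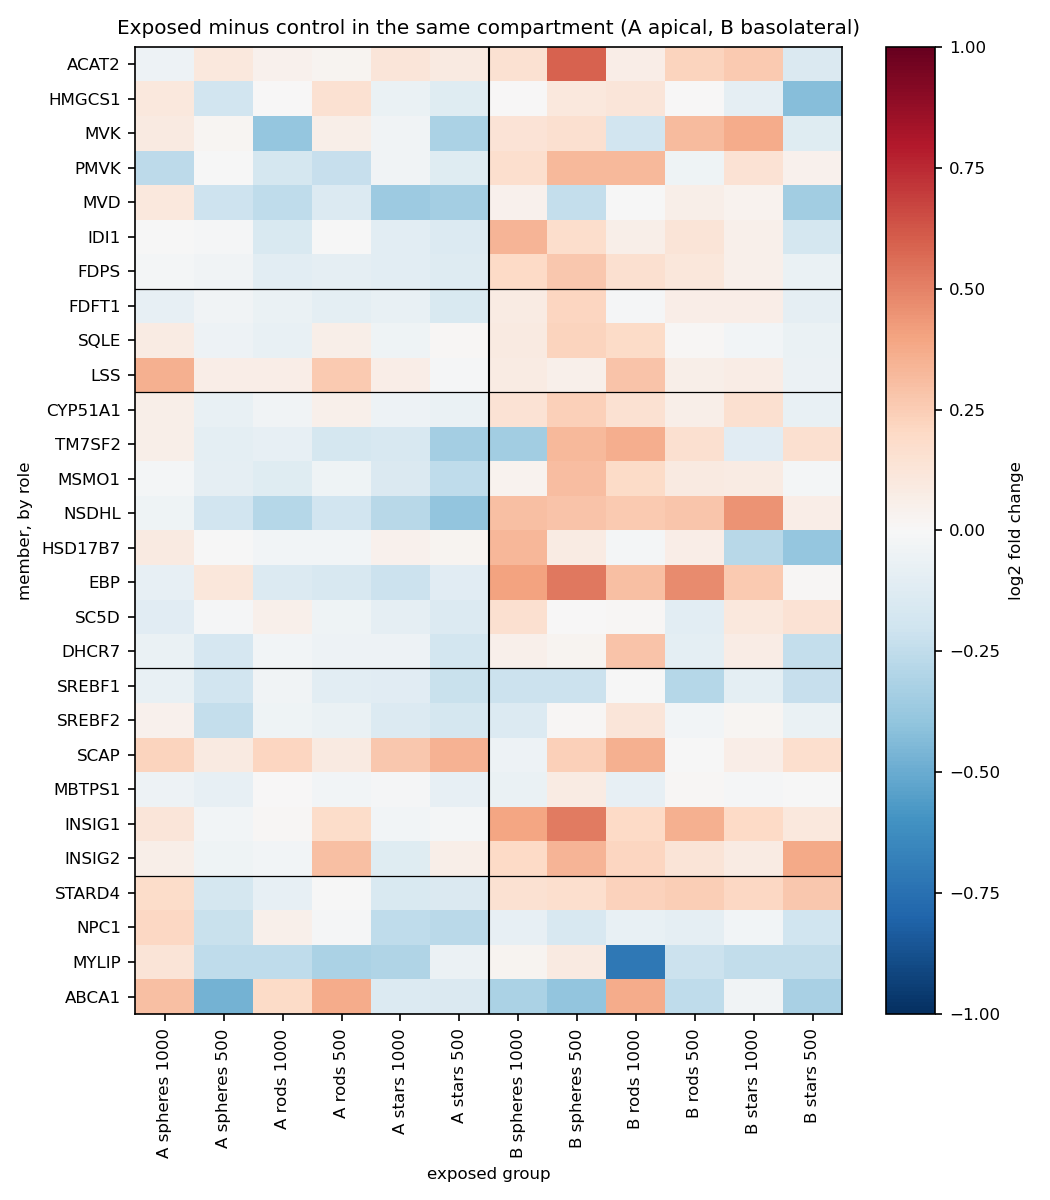
Log2 fold change of each member (rows, by role) in each exposed group minus the control of its compartment (columns, A apical, B basolateral), on a colour scale of -1 to 1. Apical cells span -0.47 to 0.37 and basolateral cells -0.72 to 0.59, and no cell passed the test.

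In the basolateral compartment no member was called in any of the 6 groups either, against a background of 0% of 14594 genes called in each. All genes at an unadjusted p under 0.05 numbered 125 to 341, DESeq2 called 0 or 1 gene and limma-voom 0, none of them members. The members' log2 fold changes lay between -0.72 and 0.59 with a median SE near 0.28, so the precision was lower than apically. Medians of the members were 0.09 in spheres 1000, 0.17 in spheres 500, 0.15 in rods 1000, 0.06 in rods 500, 0.07 in stars 1000 and -0.07 in stars 500.

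INSIG2 was nearest to the threshold, in stars 500, with 37.4, 28.2 and 27.4 CPM against 24.96, 23.5 and 23.1 CPM in control (0.38 ± 0.17, unadjusted p = 0.0396, adjusted p = 1 in edgeR). These groups did not overlap, and INSIG2 lay above the control mean in 6 of 6 basolateral groups. NSDHL also lay above it in 6 of 6, most in stars 1000 with 32.5, 22.3 and 20.98 CPM against 23.4, 17.1 and 14.5 CPM (0.45 ± 0.23, unadjusted p = 0.073). SCAP in rods 1000 had 31.4, 40.1 and 30.04 CPM against 19.9, 30.9 and 26.3 CPM (0.35 ± 0.19, unadjusted p = 0.0785), and MYLIP in rods 1000 had 3.54, 4.90 and 3.20 CPM against 6.79, 5.49 and 6.33 CPM (-0.72 ± 0.41, unadjusted p = 0.0952). STARD4, INSIG1 and EBP lay above the control mean in 6 of 6 groups, at 0.15 to 0.27, 0.10 to 0.52 and 0.01 to 0.53, and SREBF1 and NPC1 below it in 6 of 6. INSIG1 in spheres 500, which had 2 libraries, measured 100.6 and 68.3 CPM against 75.6, 63.3 and 38.5 CPM in control (0.52 ± 0.40, unadjusted p = 0.214). HSD17B7 in stars 500 had 17.1, 10.5 and 8.99 CPM against 20.03, 15.98 and 11.9 CPM (-0.39 ± 0.29, unadjusted p = 0.195). With the log2 ALDH1A1 level as a covariate, still 0 members were called in the 6 groups.

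Shapes of equal number were then compared, and each shape at 1000 was set against the same shape at 500, which gave 9 contrasts per compartment. No member was called in any of the 18, and all genes gave a background of 0% called in each. The members nearest to the threshold were in apical spheres 1000. NPC1 stood higher there than in stars 1000, with 142, 92.4 and 124 CPM against 103, 92.0 and 68.9 CPM (0.46 ± 0.18, unadjusted p = 0.0184), and than in spheres 500, which had 97.2, 88.2 and 88.6 CPM (0.43 ± 0.18, unadjusted p = 0.0246). STARD4 with 131, 95.6 and 109 CPM in spheres 1000 did not overlap with spheres 500 at 93.6, 89.0 and 87.8 CPM (0.36 ± 0.16, unadjusted p = 0.0427). SREBF2 in the same pair had 208, 156 and 204 CPM against 183, 144 and 156 CPM (0.28 ± 0.13, unadjusted p = 0.0446).

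MVK was at 16.9, 14.9 and 16.4 CPM in spheres 1000 against 11.4, 11.1 and 12.5 CPM in rods 1000, without overlap (0.48 ± 0.20, unadjusted p = 0.0286). It was also lower in rods 1000 than in rods 500, where 1 library was high at 21.7 CPM (-0.45 ± 0.20, unadjusted p = 0.039). MVD had 36.9, 22.3 and 34.6 CPM in spheres 1000 against 21.1, 27.7 and 20.1 CPM in stars 1000 (0.46 ± 0.21, unadjusted p = 0.039). In the basolateral compartment no member had an unadjusted p under 0.05 in the 9 contrasts.

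ABCA1 gave the largest apical difference, in spheres 500 minus rods 500, with 63.3, 62.2 and 66.7 CPM against 67.6, 153 and 112 CPM (-0.85 ± 0.42, unadjusted p = 0.0593). The high rods 500 values were its 2 libraries of the low KIT set, and spheres 500 and rods 500 are the groups with the doubt about labels. With the set as a block the ABCA1 difference was -0.07 ± 0.17 (unadjusted p = 0.698 in edgeR). Its level differed between the KIT sets, at 103 to 154 CPM in the 7 libraries with the lowest KIT, 46.2 to 73.2 CPM in the middle 7 and 63.3 to 105 CPM in the 7 with the highest. Within the control group the same order held, with ABCA1 at 76.7, 64.9 and 120.0 CPM in libraries of the high, middle and low KIT set. HMGCS1 was at 459 to 654, 372 to 455 and 316 to 459 CPM in the low, middle and high sets, SQLE at 340 to 386, 296 to 357 and 272 to 342 CPM, and EBP at 52.9 to 80.2, 74.4 to 95.4 and 78.0 to 87.5 CPM. What these sets stand for was not tested. With the set as a block in the same fit, 0 members were called in the apical comparisons.

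**Figure D5:**
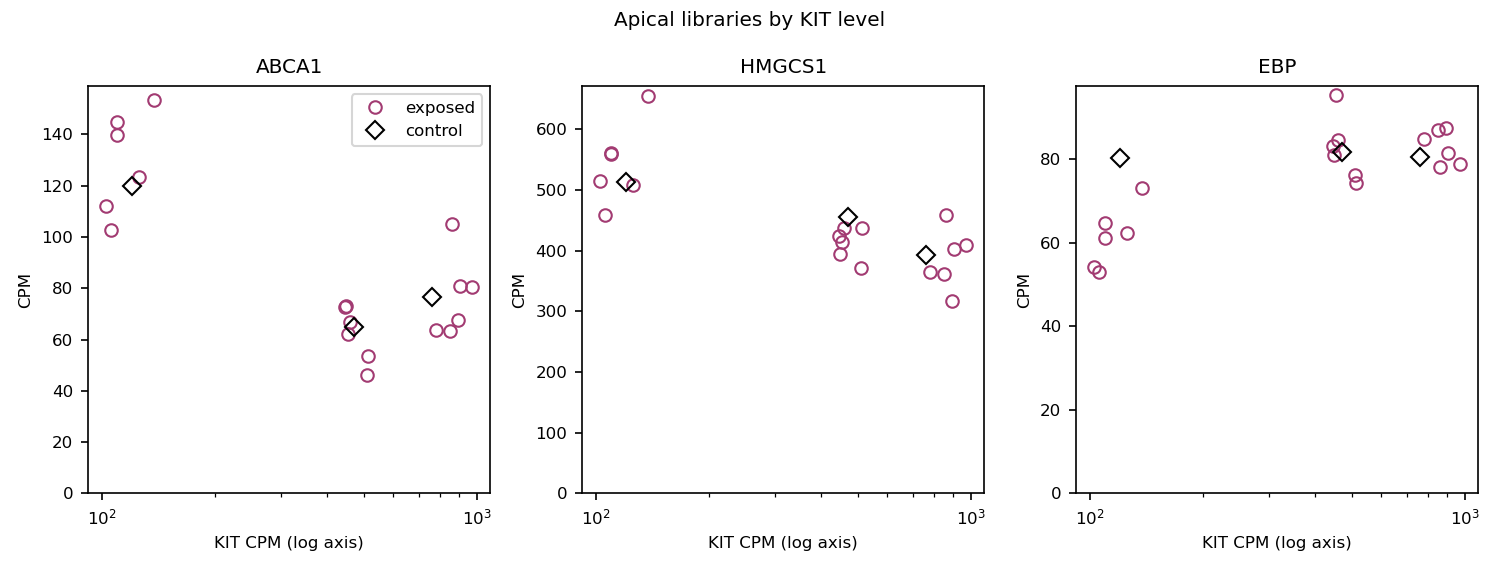
CPM of ABCA1, HMGCS1 and EBP against KIT CPM on a log axis, 1 point for each of the 21 apical libraries (circles exposed, diamonds control). The 7 libraries at 103 to 138 KIT CPM hold ABCA1 levels of 103 to 154 CPM and HMGCS1 levels of 459 to 654 CPM.

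Last, the exposure effect was compared between compartments, as apical exposed minus control less basolateral exposed minus control. No member was called in the 6 contrasts, against a background of 0% of 16352 genes in each. NSDHL had the smallest p of the members in 5 of the 6, and its difference was largest in stars 1000 (-0.70 ± 0.28, unadjusted p = 0.0159, adjusted p = 1.00 in edgeR), where the apical log2 fold change was -0.27 and the basolateral one 0.45. In spheres 1000 its difference was -0.32 ± 0.28 and the smallest p belonged to SCAP (unadjusted p = 0.205). Among the further sterol, LXR and fatty acid genes 0 were called in any comparison with control, in either compartment. The smallest unadjusted p among them belonged to ABCG1, an exporter related to ABCA1, in basolateral spheres 1000 (-1.03 ± 0.42, unadjusted p = 0.0244), followed by ACLY in apical rods 500 (-0.18 ± 0.08, unadjusted p = 0.044).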

How the data were processed

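A stranded kit turned 1 µg of total RNA into each library, per the labels' protocols. The authors deposited whole-number counts for each gene, without normalization. Per the submitters' processing notes the build was GRCh38.p13. Aligner, counter, strand setting and annotation were not given in the sources used here. Even numbers made up 67.7 to 78.9% of low counts, so depth may be overstated. No 2 libraries of a group were copies.

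The 28 members and all lists were chosen with earlier results of these data known. The test was the robust quasi-likelihood F test of edgeR 4.0.16 in R 4.3.3, after filterByExpr and TMM scaling, with group as its single term. The 21 apical libraries were fitted together for exposures and shapes, as were the 20 basolateral libraries, and all 41 for the compartments and the differences of effects. P-values were adjusted by Benjamini-Hochberg over all genes tested and called under 0.05. They measure the spread between samples that the design text calls biological replicates. The test was checked on simulated data. CPM are counts over the column total. Positions, exon lengths and overlaps come from GENCODE 29. Of the 28 members 13 overlap another annotated gene. Reads of genes on opposite strands cannot be told apart without the strand setting. CYP51A1 and TM7SF2 overlap genes on their own strand, which that setting would not part.

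By rule, values are given in each library for called members, for the 3 members with the smallest p where none was called, and for the 3 highest and lowest per kb of exon. From other lists up to 4 called genes are named. HSD17B7, INSIG1, EBP and others given by range, and the shape contrasts that are described, were chosen in part after their values were seen.

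Pairing by replicate number was checked within each compartment, and not between apical and basolateral libraries. Replicate numbers were taken to pair libraries where each of 3 or more same-numbered correlations of deviations from group means exceeded 0.1. This held in 9 of 30 comparisons, among them apical spheres 1000 and rods 1000 and basolateral stars 1000 and stars 500 against control. Alternatives were RLE scaling, no filter, DESeq2 1.42.0, limma-voom (limma 3.58.1), fits of 2 groups, the replicate number or the KIT set as a block, and leaving out each library. An ALDH1A1 covariate, leaving out all replicate 1 libraries, and the compartment contrast in exposed groups were added after seeing the data.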

Additional observations from a re-analysis of the deposited data

How the results depend on the processing

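The 24 calls between apical and basolateral control remained 24 under RLE scaling, no filter on low counts, DESeq2, limma-voom, a fit of the 2 groups, the replicate block, without all replicate 1 libraries and in each fit that left out 1 control library. No called log2 fold change moved by more than 0.34, the largest shift being that of ACAT2 without basolateral control replicate 2. Summed over the 6 exposed conditions, 145 calls became 141 to 146 under these alternatives and 139 to 146 in fits that left out 1 library. Against control, between shapes and numbers, and in the difference between compartments, 0 members were called under any alternative, the replicate block, the KIT set block and the ALDH1A1 covariate included, and 0 in the fits that left out 1 library. With the replicate block 24 of the 24 control calls and 145 of the 145 calls in exposed conditions were shared, so it changed no call.

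Of 813 alternative values of single members, 811 kept direction and call. SCAP in apical spheres 1000 minus control turned to a log2 fold change of -0.00273 with all replicate 1 libraries left out, and control replicate 1 was its lowest apical library. HSD17B7 in basolateral spheres 1000 minus control turned to -0.0192 without basolateral spheres 1000 replicate 1 (up to 0.549 without another library), whose level of 28.2 CPM was the highest of the basolateral libraries. The cause was not tested for either. Basolateral spheres 500 had 2 libraries, so leaving out 1 assumes that the other varies like the remaining groups. The median SE of a member against control was 0.15 apically and about 0.28 basolaterally, which limits the size of change that could be called.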
